A study of Mus musculus with 4 samples.

Results

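The genes described here are the placental members of the mouse prolactin family, the placental cathepsins and the trophoblast-specific Tpbp genes, followed across embryoid bodies treated with all-trans retinoic acid (ATRA). They were taken by symbol: every symbol with Prl and a digit, the cathepsins Ctsj, Ctsq, Ctsr, Ctsm, Cts3, Cts6, Cts7 and Cts8, and Tpbpa and Tpbpb. This gave 35 of the 9997 symbols of the expression table, namely 25 Prl genes, 8 cathepsins and both Tpbp genes. Although the members are named by symbol, the set was selected on its FPKM in these same 4 libraries, with the higher levels at 6 and 10 days known. Its levels are therefore a description and carry no test.

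Embryoid bodies, clumps of differentiating stem cells grown in suspension, were made from ES-E14TG2a, an established line of mouse embryonic stem cells. The 4 groups had 1 library each, a control and ATRA treatment at 0, 6 and 10 days, the stages being counted after 4 days of ATRA. The retinoid was given at 5 µM on culture days 4 and 6, and the bodies went onto dishes coated with poly-ornithine and laminin after 8 days of culture. The labels do not state the culture day of the control library or whether a library preceded the transfer to dishes, so ATRA, culture age and culture format cannot be told apart. With 1 library per group, no difference below has a replicate check.

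In rodents the prolactin gene has expanded into a large family of hormones made mainly by the placenta, where trophoblast giant cells and spongiotrophoblast secrete them towards the mother. Placental lactogens act through the prolactin receptor, while other members act on blood vessels, blood cells or immune cells, or have no assigned receptor. The placental cathepsins are cysteine proteases that arose in rodents beside cathepsin L. Tpbpa marks the ectoplacental cone and the spongiotrophoblast that forms from it.

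All 35 genes were at or near 0 FPKM in control embryoid bodies and at 0 days, and 16 of them reached 1 FPKM later, 15 with their highest level at 10 days and Prl6a1 at 6 days. Levels are given in FPKM, a fragment count divided by transcript length and by library size, so they are per length. Depth was estimated at 24500000 fragments for the control library and 26400000, 25200000 and 27300000 fragments for the ATRA libraries at 0, 6 and 10 days. That puts 3 fragments on a 1 kb transcript at 0.110 to 0.122 FPKM. Each estimate is a median within a fixed window, which limits how far the libraries can differ, so their likeness is partly built in. In the control library 21 of the 35 genes were listed at 0 and the highest stood at 0.150 FPKM. At 0 days 25 were listed at 0 and the highest stood at 0.109 FPKM. Of the 70 values in these libraries, 67 corresponded to an estimated 3 fragments or fewer, and the exceptions were Prl3d1, Tpbpa and Ctsm in the control, each at 6 estimated fragments or fewer. At 6 days 9 genes reached 1 FPKM, and at 10 days 16 did. Together the 35 genes summed to 0.946 FPKM in the control library, 0.578 FPKM at 0 days, 74.0 FPKM at 6 days and 211 FPKM at 10 days. In bulk RNA, more cells that express a gene and more RNA per cell cannot be told apart.

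**Figure D1:**
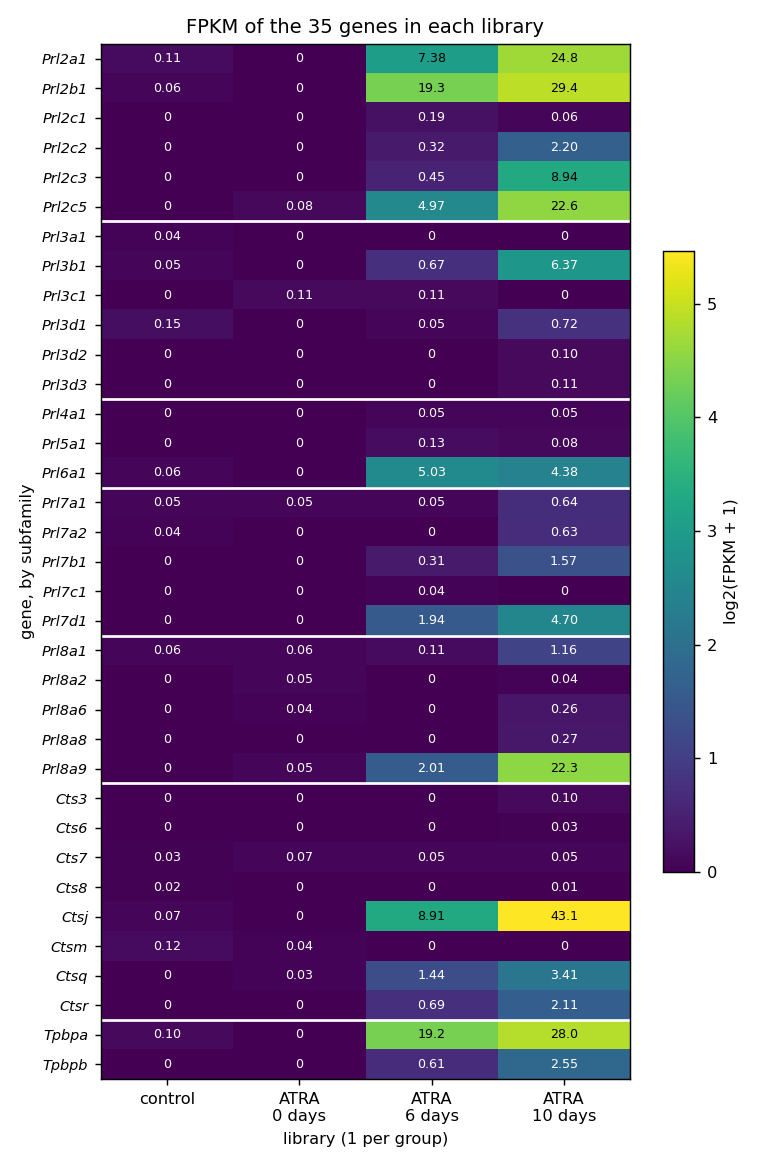
FPKM of each of the 35 genes (rows, by subfamily) in the 4 libraries (columns); the colour is log2(FPKM + 1) and the printed numbers are FPKM. The control and 0-day columns stay at or below 0.150 FPKM, and the brightest cells are at 10 days, led by Ctsj at 43.1 FPKM.

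A gene counts as called below where 2 libraries differed 2-fold or more on log2(FPKM + 1). Calls were made only for the 5885 symbols that reached 1 FPKM in some library. The 16 placental genes that passed this filter did so through the 6-day or 10-day library, so they had to be higher there, and their counts support nothing. The other 19 stayed below 1 FPKM throughout. At 6 against 0 days, 9 of the 16 were called higher, where 8.22% of the 5885 tested symbols were higher and 4.88% lower. That count was 15 with a pseudocount of 0.1 in place of 1. At 10 against 6 days, 8 of the 16 were called higher, against 3.7% of tested symbols, with 0.85% lower. The 8 became 13 with a pseudocount of 0.1 or 0.5, and 4 at a 4-fold threshold. At 10 against 0 days all 16 were called higher, against 14.4% of tested symbols, with 7.6% lower. A 4-fold threshold left 11, against 4.21% of tested symbols. None of the 16 was called higher or lower between 0 days and the control, where 12.2% of tested symbols were higher and 12.8% lower. Against the control, 9 of the 16 were called higher at 6 days (15 with a pseudocount of 0.1), where 15.3% of tested symbols were higher and 12.5% lower. At 10 days all 16 were, where 19.6% of tested symbols were higher and 17.1% lower. At a 4-fold threshold 11 were, against 7.97% of tested symbols. A filter at 5 FPKM left 9 genes, all called higher at 10 days against 0 days and against the control. None was called lower in any comparison on this scale. These comparisons share libraries and are not independent of each other.

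The balance among the genes differed between the late libraries. Prl2b1 and Tpbpa together made up 27.2% of the summed level at 10 days, against 52.0% at 6 days. Ctsj made up 20.4% at 10 days, against 12.0% at 6 days. Prl8a9 accounted for 10.6% of the sum at 10 days, against 2.72% at 6 days. By summed level the Prl2 genes were the most abundant subfamily at 10 days (88.0 FPKM) and at 6 days (32.6 FPKM).

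**Figure D2:**
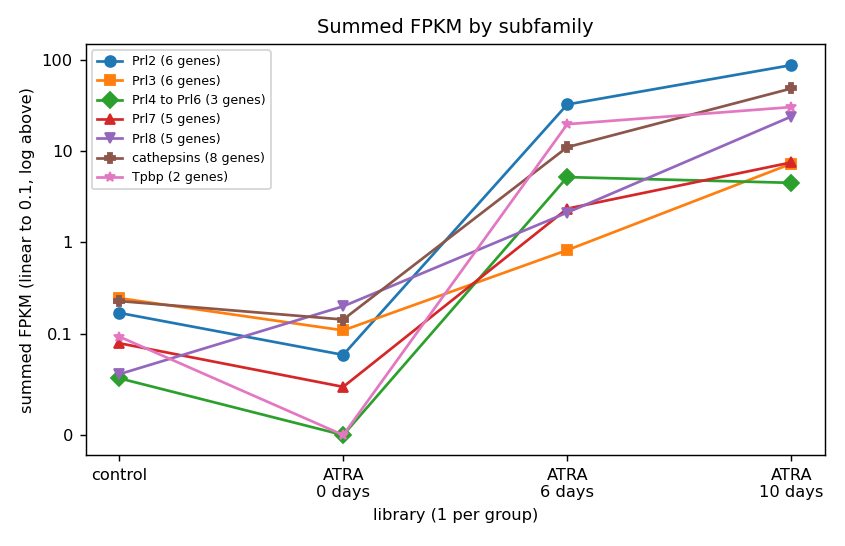
Summed FPKM of each subfamily (lines) in the 4 libraries, on an axis that is linear to 0.1 and logarithmic above. All 7 subfamilies stay at or below 0.245 FPKM in the control and at 0 days, and only the Prl4 to Prl6 group is lower at 10 days (4.51 FPKM) than at 6 days (5.20 FPKM).

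Of the placental lactogens, the members that bind the prolactin receptor, Prl3b1 was among the 8 genes at 5 FPKM or more at 10 days, while the Prl3d copies stayed below 1 FPKM. Prl3b1, placental lactogen II (mm10 chromosome 13, 27241847 to 27249683, plus strand), stood at 0.0536 FPKM in the control, was listed at 0 at 0 days, and reached 0.669 FPKM at 6 days and 6.37 FPKM at 10 days. The level at 10 days was 9.52 times that at 6 days (95% interval 5.54 to 17.2, from exact binomial limits on estimated fragments, which cover counting error in these 2 libraries only, here and below). Prl3d1, placental lactogen I and the hormone of early giant cells, was at 0.150 FPKM in the control, 0 at 0 days, 0.0484 FPKM at 6 days and 0.724 FPKM at 10 days, the last resting on about 17 fragments. It had the highest maximum of the genes that stayed below 1 FPKM. The neighbouring copies Prl3d2 and Prl3d3 were listed at 0 in every library but the 10-day one, where they stood at 0.104 and 0.105 FPKM. Prl3a1 never exceeded 0.0418 FPKM and Prl3c1, a product of the decidua, never exceeded 0.109 FPKM.

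The 3 Prl3d genes are near-identical, so the split of reads between them is uncertain. Their coding sequences are 669 bases long and differ at 16 positions. Prl3d1 and Prl3d3 are 98.7% identical, as are Prl3d2 and Prl3d3, and between 57.1% and 68.2% of the 50-base windows of their transcripts occur in another of the 35 genes. The summed level of the 3 copies was 0.933 FPKM at 10 days and 0.0484 FPKM at 6 days. The stretch below covers coding bases 58 to 177 of each GENCODE transcript and is shown because no 120-base stretch holds more of the differences. Capitals mark the 6 positions where the copies differ.
Prl3d1: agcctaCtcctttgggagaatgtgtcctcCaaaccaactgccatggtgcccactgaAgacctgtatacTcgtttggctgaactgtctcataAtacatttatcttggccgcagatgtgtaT
Prl3d2: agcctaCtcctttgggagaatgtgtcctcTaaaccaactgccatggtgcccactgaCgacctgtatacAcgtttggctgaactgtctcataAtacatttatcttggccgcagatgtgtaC
Prl3d3: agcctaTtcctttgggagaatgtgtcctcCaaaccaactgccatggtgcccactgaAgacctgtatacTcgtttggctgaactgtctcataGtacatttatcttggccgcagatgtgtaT

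The proliferins, angiogenic hormones of giant cells, were the family members with near-identical copies that reached substantial levels. Prl2c5 (chromosome 13, 13182715 to 13191923, plus strand) was listed at 0 in the control and stood at 0.0791 FPKM at 0 days, 4.97 FPKM at 6 days and 22.6 FPKM at 10 days. Prl2c3 was listed at 0 in the control and at 0 days, and stood at 0.447 FPKM at 6 days and 8.94 FPKM at 10 days. Prl2c2, proliferin-1, was also listed at 0 in both early libraries, and stood at 0.316 FPKM at 6 days and 2.20 FPKM at 10 days. All 3 were thus highest at 10 days. The level at 10 days was 4.55 times that at 6 days for Prl2c5 (3.67 to 5.64), 19.98 times for Prl2c3 (10.3 to 40.8) and 6.98 times for Prl2c2 (3.04 to 17.6). Prl2c1, which lies apart from them in the main Prl locus, was listed at 0 in both early libraries and stood at 0.188 FPKM at 6 days and 0.0595 FPKM at 10 days.

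Those intervals do not cover the division of shared reads between copies. Prl2c2 and Prl2c3 differ at 3 of 672 coding bases (99.6% identical), and 89.5% and 78.6% of their 50-base windows occur in another of the 35 genes. Prl2c5 is 96.1% identical to Prl2c2 and shares 33.6% of its windows. The sum over the 3 copies depends less on that division. It was 33.7 FPKM at 10 days and 5.73 FPKM at 6 days, a ratio of 5.88. Prl2c5 carried 67.0% of the sum at 10 days and 86.7% at 6 days, and Prl2c3 carried 26.5% at 10 days and 7.80% at 6 days. How much of that shift lies in the assignment of shared reads was not tested. The 120 coding bases from 257 to 376 are shown because no gap-free stretch of that length tells the copies apart at more positions. Capitals mark the 9 positions that differ, of 22 along the aligned coding sequence.
Prl2c2: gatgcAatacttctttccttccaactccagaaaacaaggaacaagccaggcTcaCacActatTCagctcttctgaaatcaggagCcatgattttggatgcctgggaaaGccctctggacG
Prl2c3: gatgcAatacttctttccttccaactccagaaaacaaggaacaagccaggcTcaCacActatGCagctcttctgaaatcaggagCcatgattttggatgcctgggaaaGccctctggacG
Prl2c5: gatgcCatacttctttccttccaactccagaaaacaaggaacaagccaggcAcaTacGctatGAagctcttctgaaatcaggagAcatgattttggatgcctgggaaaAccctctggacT

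**Figure D3:**
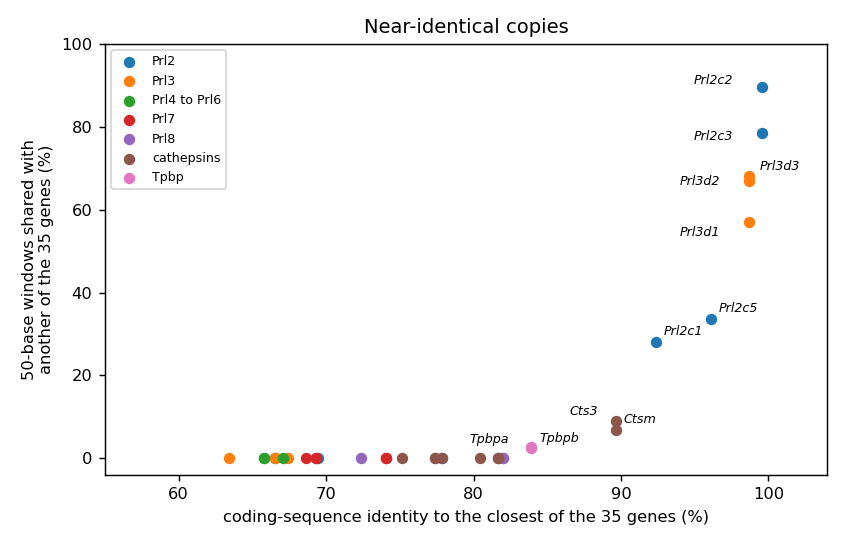
Each point is a gene; the x axis is the identity of its coding sequence to the closest of the 35 (%), the y axis the share of 50-base windows of its transcript found in another of them (%). Only the Prl2c, Prl3d, Cts3 and Ctsm, and Tpbp pairs or groups lie above 0, with Prl2c2 highest at 89.5%.

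The remaining Prl2 genes have no close copy in the set and were high at 6 days already. Prl2b1, prolactin-like protein K (chromosome 13, 27383339 to 27390846, minus strand), stood at 0.0581 FPKM in the control, 0 at 0 days, 19.3 FPKM at 6 days and 29.4 FPKM at 10 days. Prl2a1, prolactin-like protein M (chromosome 13, 27801654 to 27808729, plus strand), stood at 0.111 FPKM in the control, 0 at 0 days, 7.38 FPKM at 6 days and 24.8 FPKM at 10 days. The level at 10 days was 1.52 times that at 6 days for Prl2b1 (1.35 to 1.72) and 3.36 times for Prl2a1 (2.83 to 4.03). The intervals do not overlap, but they cover counting error only, with 1 library per stage. Whether the time courses of the 2 genes differ was not tested. At 10 days Prl2b1, Prl2a1, Prl2c5 and Prl8a9 were the 4 most abundant Prl genes, between 22.3 and 29.4 FPKM.

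Prl8 genes, which include products of the spongiotrophoblast and of the decidua, were carried by Prl8a9. Prl8a9 (chromosome 13, 27557995 to 27564606, minus strand) was listed at 0 in the control and stood at 0.0469 FPKM at 0 days, 2.01 FPKM at 6 days and 22.3 FPKM at 10 days, 11.1 times the 6-day level (8.21 to 15.1). Prl8a1 stood at 0.0600 FPKM in the control, 0.0573 FPKM at 0 days, 0.113 FPKM at 6 days and 1.16 FPKM at 10 days, the lowest maximum among the genes that passed 1 FPKM. Its 6-day level rested on 2 estimated fragments, and the ratio of 10 to 6 days was 10.3 (3.13 to 108). Prl8a8, the closest relative of Prl8a9 at 82.0% coding identity, was listed at 0 in the 3 earlier libraries and stood at 0.268 FPKM at 10 days. Prl8a9 and Prl8a8 share no 50-base window. Prl8a6 stood at 0.259 FPKM at 10 days. Prl8a2, the decidual prolactin-related protein, never exceeded 0.0511 FPKM.

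Prl7 genes were intermediate. Prl7d1, the proliferin-related protein that counters proliferin on blood vessels (chromosome 13, 27706337 to 27716736, minus strand), was listed at 0 in the control and at 0 days and stood at 1.94 FPKM at 6 days and 4.70 FPKM at 10 days, a ratio of 2.42 (1.71 to 3.40). Prl7b1 was also listed at 0 in both early libraries and stood at 0.314 FPKM at 6 days and 1.57 FPKM at 10 days, a ratio of 5.01 (2.34 to 14.0). Prl7a1 and Prl7a2, prolactin-like proteins E and F that act on megakaryocytes, appeared only in the last library above 0.1 FPKM, at 0.638 and 0.628 FPKM. Prl7c1 stayed at or below 0.0446 FPKM.

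Prl6a1, prolactin-like protein B (chromosome 13, 27312627 to 27319252, plus strand), was the exception in timing. It stood at 0.0560 FPKM in the control, 0 at 0 days, 5.03 FPKM at 6 days and 4.38 FPKM at 10 days. The level at 10 days was 0.872 times that at 6 days, and the interval of 0.661 to 1.15 holds values on both sides of 1. Among the 16 genes that reached 1 FPKM, the other 15 were higher at 10 than at 6 days. Prl4a1, prolactin-like protein A, and Prl5a1, prolactin-like protein L, stayed at or below 0.130 FPKM.

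**Figure D4:**
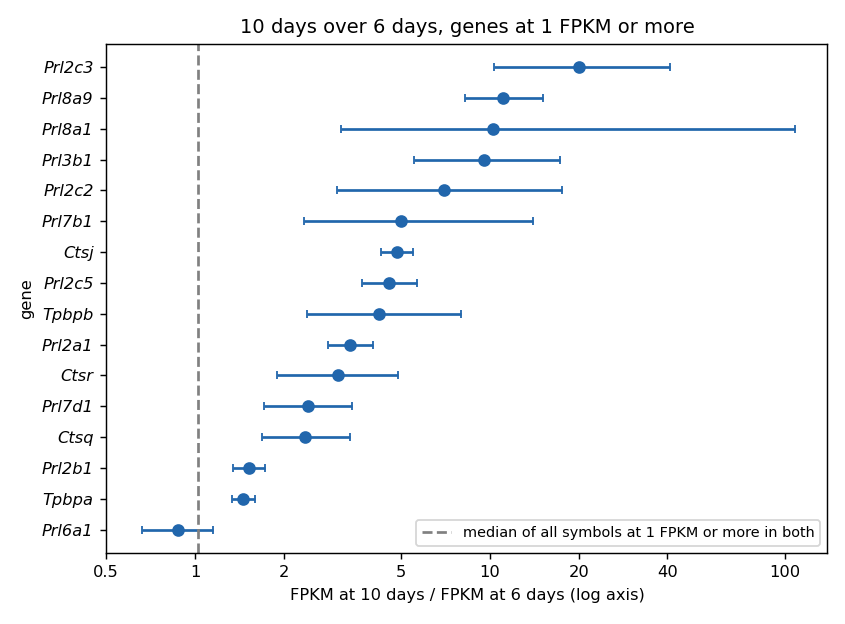
Ratio of FPKM at 10 days to FPKM at 6 days (log axis) for the 16 genes that reached 1 FPKM, with 95% intervals for counting error from estimated fragments. Points range from 0.872 for Prl6a1 to 19.98 for Prl2c3; the dashed line is the median of 1.02 over the 5182 symbols at 1 FPKM or more in both libraries. It bears on 9 of the genes, whose median ratio was 2.42; the other 7 reached 1 FPKM at 10 days only, so the filter fixed their ratios above 1.

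The cathepsins divided into expressed and near-silent genes. Ctsj (chromosome 13, 61000179 to 61005959, minus strand) stood at 0.0675 FPKM in the control, 0 at 0 days, 8.91 FPKM at 6 days and 43.1 FPKM at 10 days, the highest level of the whole set, and 4.83 times the 6-day level (4.29 to 5.47). Ctsq, which marks giant cells that line the maternal blood sinusoids, was listed at 0 in the control and stood at 0.0335 FPKM at 0 days, 1.44 FPKM at 6 days and 3.41 FPKM at 10 days, a ratio of 10 to 6 days of 2.37 (1.69 to 3.35). Ctsr was listed at 0 in both early libraries and stood at 0.689 FPKM at 6 days and 2.11 FPKM at 10 days, a ratio of 3.06 (1.89 to 4.89). Ctsm, Cts3, Cts6, Cts7 and Cts8 never exceeded 0.116 FPKM, and Ctsm, at 0.116 FPKM in the control, was listed at 0 at 6 and 10 days. Ctsm and Cts3 are 89.7% identical in coding sequence and share 6.84% and 9.05% of their windows.

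Tpbpa (chromosome 13, 60938492 to 60941984, minus strand) stood at 0.0971 FPKM in the control, 0 at 0 days, 19.2 FPKM at 6 days and 27.96 FPKM at 10 days. Tpbpb was listed at 0 in both early libraries and stood at 0.606 FPKM at 6 days and 2.55 FPKM at 10 days. Tpbpa was thus the more abundant in both late libraries. The level at 10 days was 1.46 times that at 6 days for Tpbpa (1.33 to 1.59) and 4.204 times for Tpbpb (2.41 to 8.00). These intervals do not overlap either, with the same limit to counting error. Their coding sequences are 83.9% identical, and at most 2.65% of their 50-base windows are shared. Counting error at 10 days was between 2.45% and 19.1% of the level for the 16 genes above 1 FPKM.

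All 35 genes lie on chromosome 13, in 3 loci. The Prl2c locus (12790816 to 13191923) holds Prl2c3, Prl2c2 and Prl2c5, all of which reached 1 FPKM. The main Prl locus (27094190 to 28151611) holds 22 of the genes, of which 8 reached 1 FPKM. Prl8a9, Prl8a1 and Prl7b1 are neighbours within the set, but the 8 did not form 1 block: Prl2b1 lies between Prl8a2 and Prl8a6, and Prl2a1 between Prl7c1 and Prl2c1, each flanked by genes that stayed at or below 0.259 FPKM. Pituitary prolactin, Prl, at the edge of this locus and not part of the set, was listed at 0 in all 4 libraries.

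The cathepsin and Tpbp locus (60901188 to 61570127) was divided by position. Among the 10 genes of the set there, Tpbpb, Tpbpa, Ctsj, Ctsq and Ctsr come first, in that order, and all 5 reached 1 FPKM. The next 5, in the order Cts6, Cts8, Cts7, Ctsm and Cts3, stayed at or below 0.116 FPKM. Ctla2a, a cathepsin L inhibitor that lies between Tpbpb and Tpbpa and is not part of the set, stood at 0.0325 FPKM in the control, 0.725 FPKM at 0 days, 1.14 FPKM at 6 days and 5.10 FPKM at 10 days, so it was above the set's levels at 0 days.

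**Figure D5:**
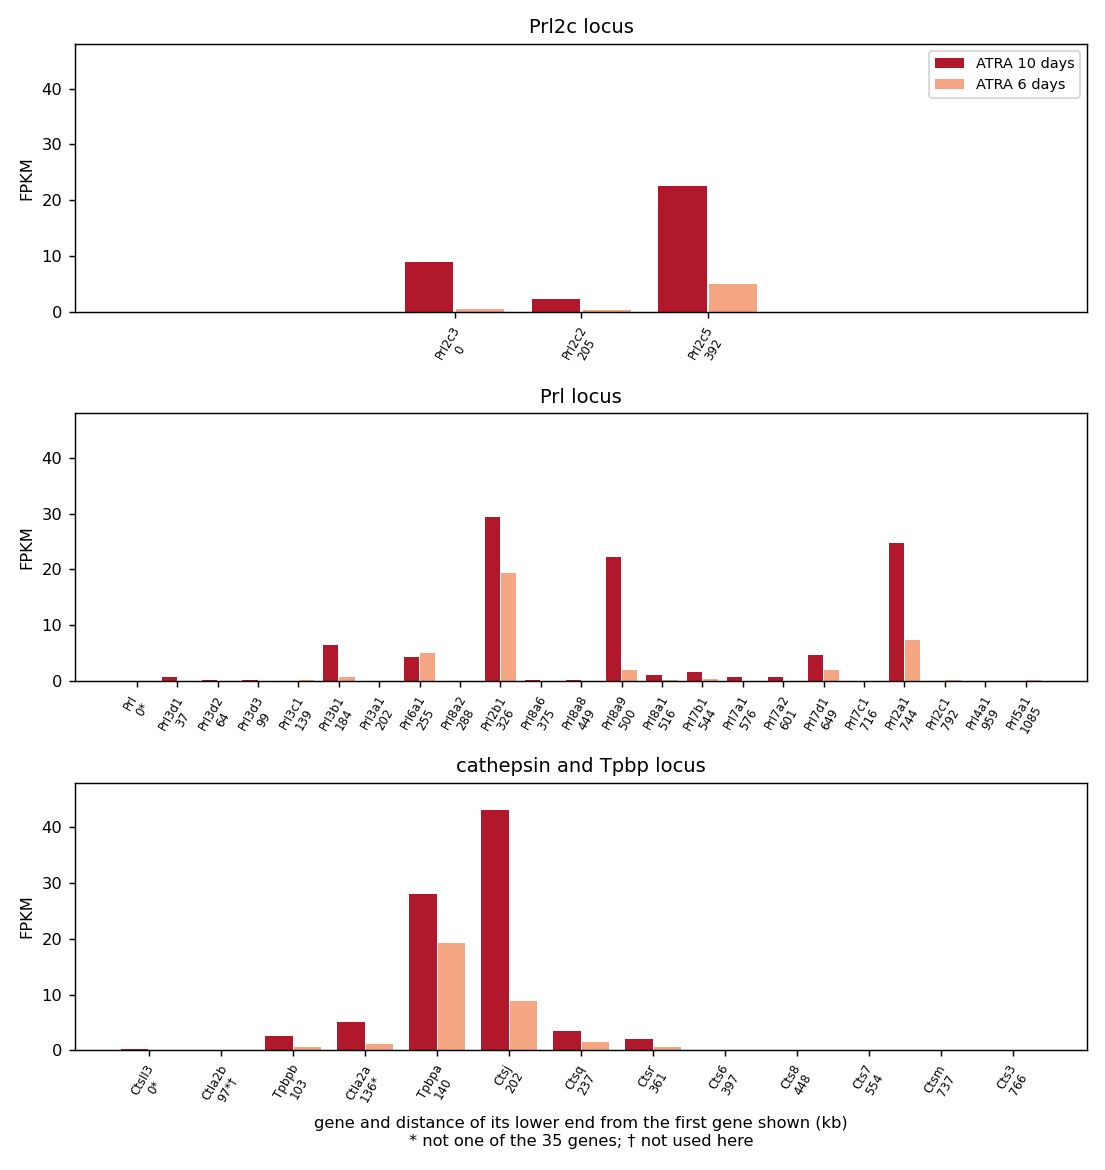
FPKM at 10 days (dark bars) and 6 days (light bars) of the genes of each locus in chromosomal order; the number under each name is the distance in kb from the lower end of the first gene shown, and an asterisk marks genes outside the 35. In the lowest panel the bars of the 35 genes stop after Ctsr, and in the middle panel high genes such as Prl2b1 (29.4 FPKM at 10 days) stand between genes near 0.

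RefSeq promoters on GRCm38.p6, from 250 bases before to 50 bases after the start, were at hand for 31 of the 35 genes. They hold few CG dinucleotides, with a median of 2 and a highest count of 5, against a median of 7 over 32851 promoters of all genes. Motifs were searched on both strands. A GATA motif (the letters GATA after an A or a T and before an A or a G, as in AGATAA) was found in 19 of the 31 (61.3%), against 29.8% of all promoters, and an AP-1 motif (TGANTCA) in 11 (35.5%), against 7.81%. These are recognised by factors known to act on the Prl3d1 promoter. The 32851 promoters were not matched to these in base composition. Its part in the differences was not tested, for these motifs or those below. Among the genes with a promoter that reached 1 FPKM, 8 of 14 held the GATA motif and 5 of 14 the AP-1 motif, against 11 of 17 and 6 of 17 of those below 1 FPKM.

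A pair of further motifs was picked after the sequences had been read, and they divide by family. TATATAGG was found in 13 of the 31 promoters (41.9%, all of Prl genes), against 0.560% of all promoters, and ATTTAAAG in 7 (22.6%, all of cathepsin or Tpbp genes), against 1.53%. They overlap none of the other motifs in the promoters printed here. In Prl8a9 and Prl3d1 the TATATAGG motif begins 27 bases before the start, and in Tpbpa, Tpbpb and Ctsj the ATTTAAAG motif begins 30 bases before it. The expressed Prl8a9 and the near-silent Prl8a8 both have the motif at 27 bases before the start. The genes are related by duplication, so these matches are not independent, and a match is not evidence of binding. The promoters of Prl3d1 and of 4 of the most abundant genes are given, with capitals for these 4 motifs: Prl3d1 at chr13:27093939-27094238 (plus strand), Prl2b1 at chr13:27390797-27391096, Prl8a9 at chr13:27564557-27564856, Tpbpa at chr13:60941887-60942186 and Ctsj at chr13:61005876-61006175 (all minus strand).
Prl3d1: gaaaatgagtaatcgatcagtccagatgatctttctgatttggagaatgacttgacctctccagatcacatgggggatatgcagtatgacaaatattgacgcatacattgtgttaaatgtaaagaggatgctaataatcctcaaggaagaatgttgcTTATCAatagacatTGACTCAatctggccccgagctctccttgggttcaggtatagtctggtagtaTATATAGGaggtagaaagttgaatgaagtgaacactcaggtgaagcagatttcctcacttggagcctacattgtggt
Prl2b1: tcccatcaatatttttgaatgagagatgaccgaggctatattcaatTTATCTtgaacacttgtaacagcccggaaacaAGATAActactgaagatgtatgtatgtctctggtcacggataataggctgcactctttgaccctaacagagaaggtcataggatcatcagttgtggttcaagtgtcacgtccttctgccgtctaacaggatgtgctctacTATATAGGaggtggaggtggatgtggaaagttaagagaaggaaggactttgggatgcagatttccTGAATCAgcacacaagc
Prl8a9: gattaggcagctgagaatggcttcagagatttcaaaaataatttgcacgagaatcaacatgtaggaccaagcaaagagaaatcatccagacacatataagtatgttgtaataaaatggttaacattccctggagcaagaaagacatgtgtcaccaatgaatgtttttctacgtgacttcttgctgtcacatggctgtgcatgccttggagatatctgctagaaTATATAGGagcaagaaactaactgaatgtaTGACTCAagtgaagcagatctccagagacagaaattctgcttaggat
Tpbpa: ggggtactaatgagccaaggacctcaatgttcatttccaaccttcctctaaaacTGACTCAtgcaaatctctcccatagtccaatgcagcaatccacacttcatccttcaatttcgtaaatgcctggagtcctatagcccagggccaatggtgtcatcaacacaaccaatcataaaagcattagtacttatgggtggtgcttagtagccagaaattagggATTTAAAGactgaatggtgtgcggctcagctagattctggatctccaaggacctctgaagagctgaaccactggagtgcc
Ctsj: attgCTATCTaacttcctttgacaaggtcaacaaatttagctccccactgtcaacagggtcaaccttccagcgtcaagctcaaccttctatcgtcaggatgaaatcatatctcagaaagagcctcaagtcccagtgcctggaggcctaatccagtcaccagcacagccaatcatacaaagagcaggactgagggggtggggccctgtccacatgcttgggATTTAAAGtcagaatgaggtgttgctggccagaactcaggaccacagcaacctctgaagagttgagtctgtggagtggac

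Other trophoblast genes were examined to check the label. Of a list of 27 trophoblast and giant cell factors 15 were in the table and 14 passed the filter; at 10 against 0 days 4 were higher and 1 lower, where 14.4% of tested symbols were higher and 7.6% lower. Their median log2 difference was 0.46, against 0.02 over all tested symbols. Hand1, among the 4, passed the filter only through the 6-day and 10-day libraries, so it had to be higher there. Hand1, which giant cells need to form, stood at 0.0222 FPKM in the control, 0.123 FPKM at 0 days, 9.44 FPKM at 6 days and 17.5 FPKM at 10 days. Cited2, a regulator of placental growth, stood at 44.6, 37.97, 160 and 200 FPKM in the same order. Sox15, a partner of Hand1 in giant cells, was highest in the control at 21.0 FPKM, and stood at 1.83, 6.79 and 6.83 FPKM at 0, 6 and 10 days. Zfp36l1, an RNA-binding protein needed for placental development, was lower at 10 days, at 53.0 FPKM, than at 0 days, at 116 FPKM. Several factors that define trophoblast stem cells were not analysed here. Hand1 is also made by heart and extraembryonic mesoderm, so it does not identify the cells.

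Of 29 other placental products 15 were in the table and 11 passed the filter. At 10 against 0 days 10 of these were higher, where 14.4% of tested symbols were (median log2 difference 3.07 against 0.02). Among the 10, Serpinb9e, Serpinb9f, Serpinb9g and Ctla2a passed the filter only through the 6-day and 10-day libraries. They had to be higher there, so the count and the median are a description only. Synb, a syncytin of the labyrinth, was listed at 0 in all 4 libraries. Krt7, a keratin of trophoblast and other simple epithelia, stood at 3.83 FPKM at 0 days, 140 FPKM at 6 days and 260 FPKM at 10 days. Krt18, its partner type of keratin, stood at 120, 743 and 1518 FPKM at the same stages, and the carbonic anhydrase Car4 at 5.60, 141 and 216 FPKM. Krt8, Krt18 and Krt19, all among the 10, stood at 93.7, 12.8 and 24.4 FPKM in the control library, where the placental genes were near 0. These keratins are therefore not particular to placental cells here. Serpinb9b stood at 1.18, 22.9 and 28.8 FPKM. Its relatives Serpinb9e, Serpinb9f and Serpinb9g, serine protease inhibitor genes on the same chromosome, were lower at 10 than at 6 days, a comparison chosen after their values were seen. Serpinb9e stood at 5.54 FPKM at 10 days and 12.0 FPKM at 6 days, Serpinb9f at 1.80 FPKM at 10 days and 4.17 FPKM at 6 days, and Serpinb9g at 1.63 FPKM at 10 days and 3.87 FPKM at 6 days.

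Markers of other cells were set beside these values. Pituitary markers stayed low. Of 10 listed, 5 were in the table and 1 passed the filter, and their summed level was 1.10 FPKM in the control, 1.55 FPKM at 0 days, 2.14 FPKM at 6 days and 2.01 FPKM at 10 days. Prl was listed at 0 throughout, and Gh was listed at 0 in all ATRA libraries. Of 18 markers of parietal and visceral endoderm, 13 were in the table, none at 0 in all libraries, and all 13 passed the filter. At 10 against 0 days 11 were higher and 1 lower, where 14.4% of tested symbols were higher and 7.6% lower. At 0 days 7 of these markers were already higher than in the control, where 12.2% of tested symbols were. At 10 against 6 days 1 was higher, where 3.7% of tested symbols were. The placental counts cannot be set against these, because those genes passed the filter only through the 6-day or 10-day library. The marker that was lower was Sox7, at 3.04 FPKM at 10 days and 19.6 FPKM at 0 days. The 13 markers had a summed level of 275 FPKM in the control, 478 FPKM at 0 days, 3082 FPKM at 6 days and 4425 FPKM at 10 days. Ttr, the transthyretin of visceral endoderm, stood at 356 FPKM at 10 days and 15.4 FPKM at 0 days, and Sparc, a matrix protein of parietal endoderm, at 2711 FPKM at 10 days and 259 FPKM at 0 days. Apoa2 stood at 146 FPKM at 10 days and 6.24 FPKM at 0 days, and Sox17 at 43.5 FPKM at 10 days and 1.87 FPKM at 0 days. Of 10 neuronal markers 6 were in the table. They summed to 9.52 FPKM in the control, 16.9 FPKM at 0 days, 79.6 FPKM at 6 days and 40.2 FPKM at 10 days. Nefl alone stood at 39.6 FPKM at 6 days and 21.8 FPKM at 10 days. The neuronal sum was lower at 10 than at 6 days, whereas the placental sum was higher at 10 days. The 6 pluripotency markers in the table were each 2-fold or more lower in every ATRA library than in the control. Of these, 2 were higher at 6 and at 10 days than at 0 days: Tdh stood at 0.873, 34.3 and 24.8 FPKM at 0, 6 and 10 days, and Tcl1 at 0.905, 9.89 and 8.77 FPKM. The part of these cell types in the placental values was not tested.

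Of the receptors, Prlr, the prolactin receptor, was low and stood at 0.0660 FPKM in the control, 0.0863 FPKM at 0 days, 0.768 FPKM at 6 days and 0.348 FPKM at 10 days. Ghr, the growth hormone receptor, stood at 25.0 FPKM at 10 days and 4.76 FPKM at 0 days. A list made for the prolactin axis had 7 genes that passed the filter. At 10 against 0 days 3 were higher and none lower, where 14.4% of tested symbols were higher and 7.6% lower. The 3 were Ghr, Gata4 and Socs3. Ghr and Gata4 are not specific to that axis, so the count does not describe prolactin signalling. Gata4 is also counted among the endoderm markers above, and Socs3 among the trophoblast factors. Stat5a and Stat5b were not called at 10 against 0 days. Stat5b was called lower at 6 days (3.36 FPKM) than at 0 days (7.78 FPKM). Other cathepsins and cysteine protease inhibitors were set beside the placental ones. Ctsl, the ubiquitous relative of the placental cathepsins, stood at 196 FPKM in the control, 322 FPKM at 0 days, 1294 FPKM at 6 days and 1122 FPKM at 10 days, so it was abundant also where the placental ones were near 0. Lgmn, a lysosomal protease that processes cathepsins, stood at 45.5, 87.0, 375 and 362 FPKM in the same order. Of 5 on this list that passed the filter, 4 were higher and none lower at 10 than at 0 days, against the same shares of 14.4% and 7.6%. The 4 include Ctla2a, which lies in the placental locus and is also counted among the placental products above. Ctla2a passed the filter only through the 6-day and 10-day libraries, so it had to be higher there.

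A search for genes with a like pattern, below 0.2 FPKM in the control and at 0 days and at 5 FPKM or more at 10 days, found 36 symbols. Of these 10 were small RNAs, whose FPKM is unstable, 1 was a predicted gene, 8 were placental genes of the set and 17 were other genes. The 10 highest of the others at 10 days were Vtn (59.1 FPKM), Col3a1 (42.5), Serpina6 (18.1), Hand1 (17.5), Ccl7 (17.2), Dcn (13.9), Serpina10 (7.97), Krt14 (7.61), Akr1c14 (7.58) and Hba-x (6.99 FPKM). They include a liver-type serum protein, a fibroblast collagen, a chemokine and an embryonic globin, so the pattern was not particular to placental genes. With 4 libraries the likeness rests on the thresholds alone.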

How the data were processed

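RNA was sequenced in 4 embryoid body libraries, 1 per group. The authors deposited FPKM, per the file headers, in a column for each library. Trimmomatic, TopHat, Cufflinks and mm10 appear, without versions, per the submitters' processing notes. Annotation, strand use, read length and the handling of reads that near-identical genes share: not given in the sources used here.

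Rows that repeat a symbol were summed (177 symbols, none of the 35). Differences are on log2(FPKM + 1), which understates changes of low genes, and were called at 2-fold or more; symbols never reaching 1 FPKM were left out of calls. No test was possible with 1 library per group. The members and lists were chosen with earlier results of these data known. The naming rule took every member, the 4 list genes with the largest difference of 10 against 0 days, defining markers at 0, and genes of like pattern. For list genes it was followed in full only for the trophoblast factors, the other placental products and the endoderm markers. Other names, and both 8-letter promoter motifs, were chosen after values or sequences were seen. The table covers part of the genome, so list genes elsewhere were not analysed here.

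For depth, FPKM times length in kb was taken over 1396 genes whose 1 transcript spans at least 800 nt, and the median between 0.02 and 0.05 was read as 1 fragment. Fragments per gene follow from its GENCODE M21 transcript length (GRCm38) and are approximate. Coding sequences were aligned pairwise; windows were compared on transcripts. Only the 2-fold call was tested on simulated libraries, with 3-fold and 6-fold changes planted in genes at 5 FPKM or more. All planted changes were called, and at most 4 of 5480 unchanged genes. The simulation does not cover genes near 0 FPKM, as the placental genes were in the control and at 0 days. Alternatives were pseudocounts of 0.1 and 0.5, scaling by median ratio or upper quartile, a 4-fold threshold, no filter or 1 at 5 FPKM, and the highest row of a repeated symbol. Software was Python 3.11.15 with Biopython 1.88, numpy 2.4.6, scipy 1.17.1, pandas 2.3.3 and matplotlib 3.10.9.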

Additional observations from a re-analysis of the deposited data

How the results depend on the processing

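Counts of placental genes called 2-fold or more higher depended on the pseudocount, the filter and the threshold. With a pseudocount of 0.1 they were 15 at 6 against 0 days, 15 at 6 days against the control and 13 at 10 against 6 days. With 0.5 they were 12, 12 and 13 in the same order. Adding less than 1 to FPKM counts larger differences at low levels by construction, and 0.1 also put 1 gene 2-fold lower at 0 days than in the control. A filter at 5 FPKM left 9 genes, all called higher at 10 days against 0 days and against the control, 9 in each. Of these, 7 were higher at 6 days against 0 days and against the control, and 6 at 10 against 6 days. A 4-fold threshold gave 4 at 10 against 6 days, against 0.493% of tested symbols. At 6 days it gave 6 against 0 days (2.26% of tested symbols) and 6 against the control (5.35%). At 10 days it gave 11 against 0 days (4.21%) and 11 against the control (7.97%). Median-ratio and upper-quartile scaling, no filter, and the highest row of a repeated symbol left the counts of all 6 comparisons as reported. No log2 difference of a named gene that was called changed sign under the alternatives run. Of the differences set against counting error, 21 were labelled as moved beyond it, all with the pseudocount of 0.1, and 459 were not. The 459 do not show stability, because no difference from a value listed at 0 was among the 21, however far it shifted. Tpbpa at 6 against 0 days went from 4.34 to 7.59 with a pseudocount of 0.1 and was still among the 459. A pseudocount also shifts differences by construction, which counting error does not measure. No paired analysis was possible because each group has 1 library, and leaving out a replicate was not possible for the same reason. Levels under about 0.12 FPKM rest on 3 fragments or fewer per kb, so differences among them were not detectable at this depth.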
